A study of Mus musculus with 10 samples.

Results

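De novo fatty acid synthesis was examined through 10 genes in cultured preadipocytes, the precursors of fat cells, given bisphenol S (BPS) or its vehicle. The genes were listed by name, as the transcription factor Srebf1 and 9 enzymes of synthesis, elongation and desaturation (Fasn, Acaca, Acly, Acss2, Scd1, Scd2, Elovl5, Elovl6 and Fads2), and no measured value entered the rule, although earlier results of these data were known when they were listed. All 10 were found among 32903 genes with transcripts and all 10 passed the filter on low counts, which left 14597 genes for testing. The cells came from the inguinal subcutaneous fat depot of wild-type male C57BL/6 mice, and both groups received DMSO, the solvent. In 5 libraries DMSO was the only addition and in 5 libraries it carried BPS at 2.5 µM, a structural analogue of bisphenol A. The length of exposure was not stated; the study's title concerns reactive oxygen species in the fat-promoting action of bisphenol A and its analogues. Whether the 5 libraries of a group came from separate animals or separate dishes was not stated, so p-values measure the spread between these libraries, which may be technical.

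Cells build fatty acids in the cytosol from acetyl-CoA, which ATP citrate lyase (Acly) makes from citrate and acetyl-CoA synthetase (Acss2) from acetate. Acetyl-CoA carboxylase (Acaca) turns it into malonyl-CoA, and fatty acid synthase (Fasn) joins these units into palmitate. ELOVL enzymes lengthen the chain, SCD and FADS enzymes insert double bonds, and SREBP-1, the product of Srebf1, activates most of these genes when it is released from the endoplasmic reticulum. In fat tissue the pathway is known for its induction as preadipocytes turn into lipid-storing adipocytes.

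None of the 10 genes passed the test for a difference between BPS and DMSO. In the quasi-likelihood test of edgeR, with p-values adjusted over all genes (Benjamini-Hochberg), 0 of 10 were higher and 0 of 10 were lower at an adjusted p under 0.05, and the lowest adjusted p was 0.126. Across all genes 4.88% were called, 3.06% higher and 1.82% lower. Without adjustment 2 of 10 (Scd2 and Fads2) had p under 0.05, against 18.8% of all genes. The DESeq2 Wald test and limma-voom also called 0 of 10. In 0 of 10 genes did the 5 BPS values lie apart from the 5 DMSO values, against 6.9% of all genes. The median log2 fold change of the 10 genes was 0.031, with values from -0.07 to 0.09, beside a median of 0.000393 over all genes tested.

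The libraries held 37920689 to 42717227 estimated counts, and the totals of the groups overlapped (two-sided exact permutation p = 0.452). Pairs of libraries correlated, in log CPM (the read count scaled to a common library size), at 0.9895 to 0.9917 within groups and 0.9883 to 0.9916 between them. All DMSO libraries carry lower library numbers than all BPS libraries, so a batch that followed this order cannot be told apart from the treatment. Of all calls 62.8% were higher in BPS, and 45.9% of 728 calls under scaling to library size only. Among the preadipocyte markers Pdgfra had means of 903.8 ± 14.3 CPM (DMSO) and 863.3 ± 22.8 CPM (BPS; SD, n = 5 each). Of the 8 markers of that list Thy1 and Cd34 rose (log2 fold changes 0.19 and 0.28, adjusted p 0.00129 and 0.000428 by edgeR) and 0 were called lower. The list was split, with 4 log2 fold changes above 0, 4 below and a median of -0.01. Those of Pdgfra and Dpp4 were -0.07 and -0.2 (edgeR adjusted p 0.0777 and 0.335). The 6 markers of mature adipocytes summed to 0.0838 to 0.228 CPM (DMSO) and 0.0502 to 0.169 CPM (BPS), with Lep at 0 counts in every library and Adipoq at 0 to 3. Summed markers of macrophages lay at 9.41 to 15.3 and 10.3 to 18.2 CPM, of endothelium at 17.3 to 23.3 and 16.8 to 22.6 CPM, and of epithelium at 0.127 to 0.335 and 0.135 to 0.259 CPM, each overlapping between DMSO and BPS; Csf1r was at 0 counts throughout. Mural markers summed to 57.5 to 62.5 CPM (DMSO) and 63.5 to 71.4 CPM (BPS), with Cspg4 called higher, and mesothelial markers to 8.24 to 10.1 and 10.3 to 12.1 CPM, all but a trace of it Krt19, with Msln and Upk3b at 0 counts. The part of these cell types in the results was not tested, and in bulk RNA fewer cells of a type and less RNA per cell cannot be told apart.

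Levels differ widely between the genes once they are set per length. CPM per kilobase (CPM per kb) were taken over the linked reference transcript of each gene. In DMSO the desaturase gene Scd2 led with 185 ± 5.65 CPM per kb, followed by Scd1 with 77.4 ± 4.02 and Acly with 58.9 ± 1.59 (SD, n = 5 each). Elovl5 stood at 33.8 ± 0.765, Fads2 at 21.3 ± 0.706 and Fasn at 18.8 ± 0.779 CPM per kb. Acaca and Srebf1 followed at 9.64 ± 1.47 and 9.62 ± 0.352, then Elovl6 at 5.98 ± 0.37 and Acss2 at 3.63 ± 0.312 CPM per kb. The DMSO libraries of neighbours in this order did not overlap, except for Acaca and Srebf1. A single length was used per gene, although the counts of Srebf1, Acaca, Acly and Elovl5 came from several transcripts. The spread between libraries leaves this out, so close ranks of these genes are uncertain. The stearoyl-CoA desaturases, which make oleate from stearate, were thus the most abundant of these 10 genes per length, and the acetate-using Acss2 the least.

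Promoter windows of 300 bases, 250 before and 50 after the start site, were in the RefSeq table (GRCm38.p6) for 8 of the 10 genes, 10 windows in all. The Fasn and Elovl5 windows are shown because Fasn is the central enzyme of the pathway and Elovl5 held the only E-box. Capitals mark matches to the CCAAT box (CCAAT, or ATTGG on the other strand) and the E-box (CACGTG). The GC box (GGGCGG, or CCGCCC on the other strand) was also searched and is in neither window. All are motifs known from SREBP-responsive promoters.
Fasn, chr11:120824498-120824797, minus strand: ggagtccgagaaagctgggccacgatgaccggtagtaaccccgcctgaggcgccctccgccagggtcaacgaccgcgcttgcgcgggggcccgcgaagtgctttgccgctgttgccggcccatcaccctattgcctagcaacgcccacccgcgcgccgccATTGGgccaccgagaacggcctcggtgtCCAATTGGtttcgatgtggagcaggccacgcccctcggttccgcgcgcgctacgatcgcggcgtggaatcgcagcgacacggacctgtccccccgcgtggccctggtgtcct
Elovl5, chr9:77917115-77917414, plus strand: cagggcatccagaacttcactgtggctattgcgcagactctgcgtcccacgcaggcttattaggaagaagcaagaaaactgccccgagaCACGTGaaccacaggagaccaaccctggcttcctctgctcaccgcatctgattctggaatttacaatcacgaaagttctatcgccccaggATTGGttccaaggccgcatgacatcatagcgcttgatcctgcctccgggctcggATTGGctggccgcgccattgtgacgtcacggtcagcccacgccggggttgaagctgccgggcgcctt
In the Fasn window the CCAAT matches begin 90, 62 and 59 bases before the start site, the last 2 overlapping on opposite strands. The Elovl5 window has its E-box 161 bases and its CCAAT matches 71 and 17 bases before the start site. A sterol regulatory element core (TCACCCCAC, or the looser TCACNCCAC, both strands) matched in 0 of the 10 windows, against 0.551% and 1.24% of all 32851 windows. At shares this low, 0 of 10 windows cannot show that these genes lack such elements. Other variants of the element, and bases outside the windows, were not searched. CCAAT matched in 6 windows of 5 genes (37.4% of all windows), the GC box in 5 windows of 4 genes (35.7%) and the E-box in 1 window (7.15%). These matches are letters in a window, not measured binding sites.

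Srebf1, the regulator of the set, did not pass the test, and its 5 BPS values spread more widely than its 5 DMSO values. DMSO replicates 1 to 5 stood at 41.49, 42.74, 40.94, 38.98 and 42.56 CPM, and BPS replicates 1 to 5 at 47.35, 46.47, 34.29, 39.57 and 36.37 CPM. BPS replicates 1 and 2 lay above every DMSO library and BPS replicates 3 and 5 below every one. The coefficient of variation was 3.66% in DMSO and 14.4% in BPS; a difference in spread was not tested. The log2 fold change was -0.02 (SE 0.083, edgeR adjusted p 0.937), with a 95% interval of the change from -12.9% to 12%. It turned positive without BPS replicate 3 (0.0385) or BPS replicate 5 (0.0205). The gene's counts were divided among 3 RefSeq transcripts, and the share of the leading one, NM_011480.4, ran from 51.7% to 84.8% in DMSO and from 59.2% to 82.8% in BPS. No difference in this share was detected between the groups (exact two-sided permutation test, p = 0.81, adjusted over 4 genes 0.81).

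**Figure D1:**
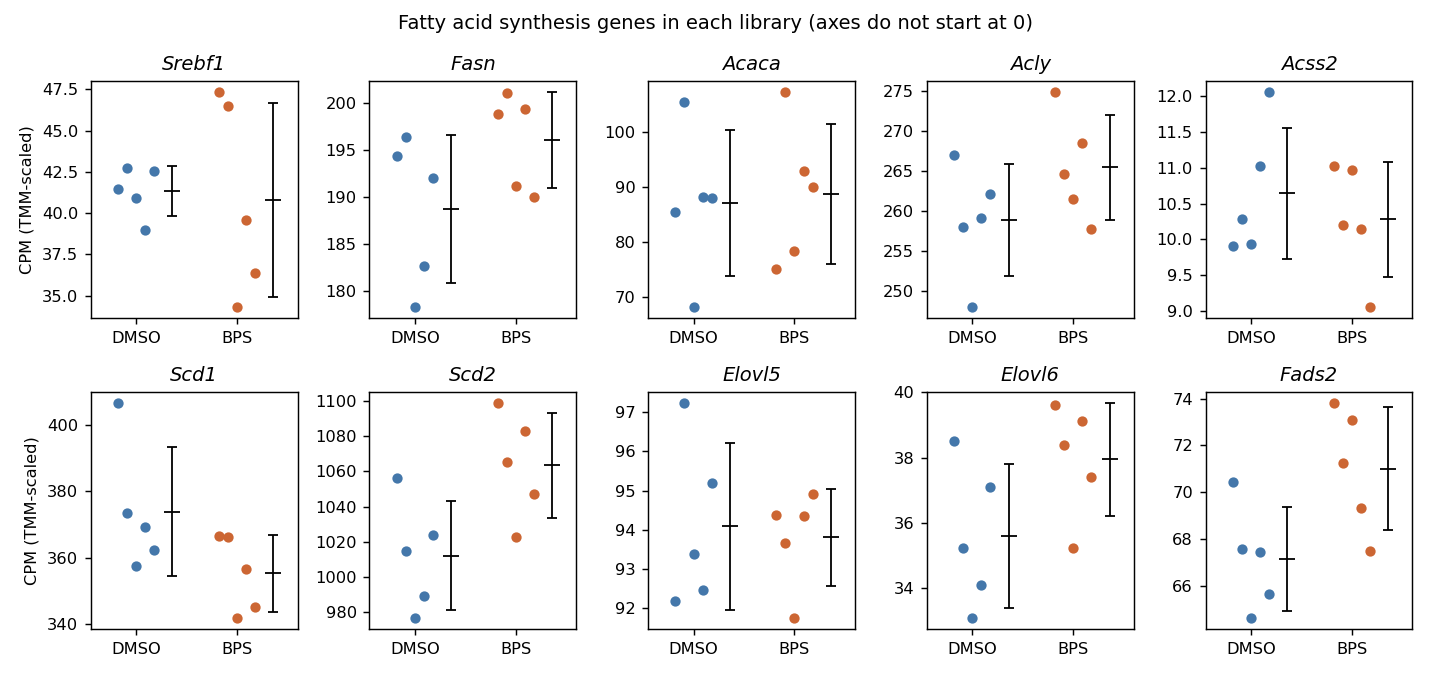
CPM of the 10 genes in each library (y axes, TMM-scaled, not starting at 0) for 5 DMSO (blue) and 5 BPS (orange) libraries, with the mean and SD in black. The groups overlap in all 10 genes, and Srebf1 spreads from 34.29 to 47.35 CPM in BPS against 38.98 to 42.74 in DMSO.

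Neither enzyme of acetyl-CoA supply passed the test. Acly, the citrate-cleaving one, stood at 267, 258, 248, 259.2 and 262.1 CPM in DMSO replicates 1 to 5 and at 274.9, 264.7, 261.5, 268.5 and 257.8 CPM in BPS replicates 1 to 5. The ranges overlapped, with only BPS replicates 1 and 4 above every DMSO library. Its log2 fold change was 0.04 (SE 0.023, edgeR adjusted p 0.434), and the 95% interval ran from -0.888% to 6.15%. Its 2 transcripts divided the counts nearly evenly, NM_134037.3 holding 55.8 ± 1.95% in DMSO and 55 ± 1.74% in BPS (SD, n = 5 each; exact permutation test, adjusted p = 0.72). Acss2 had 327 to 440 counts per library, the fewest of the 10 genes. It stood at 9.903, 10.28, 9.937, 11.03 and 12.06 CPM in DMSO and at 11.03, 10.2, 10.97, 10.15 and 9.05 CPM in BPS. The highest value was in DMSO replicate 5 and the lowest in BPS replicate 5, and the other libraries interleaved. Its edgeR estimate, as log2 fold change, was -0.05 (SE 0.07, edgeR adjusted p 0.779), with a 95% interval from -13% to 7.47%.

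Fasn, which assembles palmitate, stood at 194.4, 196.4, 178.3, 182.7 and 192 CPM in DMSO replicates 1 to 5 and at 198.8, 201.1, 191.2, 199.3 and 190 CPM in BPS replicates 1 to 5. BPS replicates 1, 2 and 4 lay above every DMSO library and the other BPS libraries within the DMSO range. The log2 fold change was 0.05 (SE 0.029, edgeR adjusted p 0.341), and the 95% interval of the change ran from -0.555% to 8.51%. Fasn had a single transcript in the table, with 6864 to 7929 counts per library.

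Acaca, which makes malonyl-CoA, was the least precisely measured member. It stood at 85.34, 105.5, 68.04, 88.1 and 87.99 CPM in DMSO and at 75.08, 107.3, 78.33, 92.82 and 89.89 CPM in BPS. Replicate 2 was the highest library in both groups, and DMSO replicate 3 the lowest of all. Its edgeR estimate, as log2 fold change, was 0.03 (SE 0.119, edgeR adjusted p 0.935), with a 95% interval from -14.8% to 22%. It turned negative without DMSO replicate 3 (-0.0509) or BPS replicate 2 (-0.0511). Acaca had 8 RefSeq transcripts, of which 2 were at 0 counts in every library, and the predicted models held most of its counts. The share of XM_011248666.1, the largest, ran from 29.3% to 55.1% in DMSO and from 37.1% to 64.6% in BPS, while the curated NM_133360.2 had 14 to 368 counts. Of the 31-base words in the linked Acaca transcript 59.9% also occur in the pseudogene Gm5182 (GENCODE M21), for which the RefSeq table lists no transcript. Reads that lie within the shared part could therefore not be told apart by sequence, and the value of Acaca is uncertain. For the other members the shared part was at most 8.69%, in Acss2, mostly with its neighbour Ggt7. With exact version matching only the curated transcript counted and the log2 fold change became 0.909 (adjusted p = 0.665 by edgeR).

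Libraries tended to be high or low in several members at once. DMSO replicate 3 lay below the DMSO mean in all 10 genes and was the lowest of the 10 libraries in 6 of them. BPS replicate 1 was the highest library in 5 genes. Summed over the 10 genes, DMSO libraries ran from 2071 CPM in replicate 3 to 2262 CPM in replicate 1, and BPS libraries from 2140 CPM in replicate 3 to 2280 CPM in replicate 1. The summed ranges overlapped. Without DMSO replicate 3 the log2 fold change of Fasn was 0.035 and that of Scd2 was 0.059, and 0 of 10 genes were called.

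**Figure D2:**
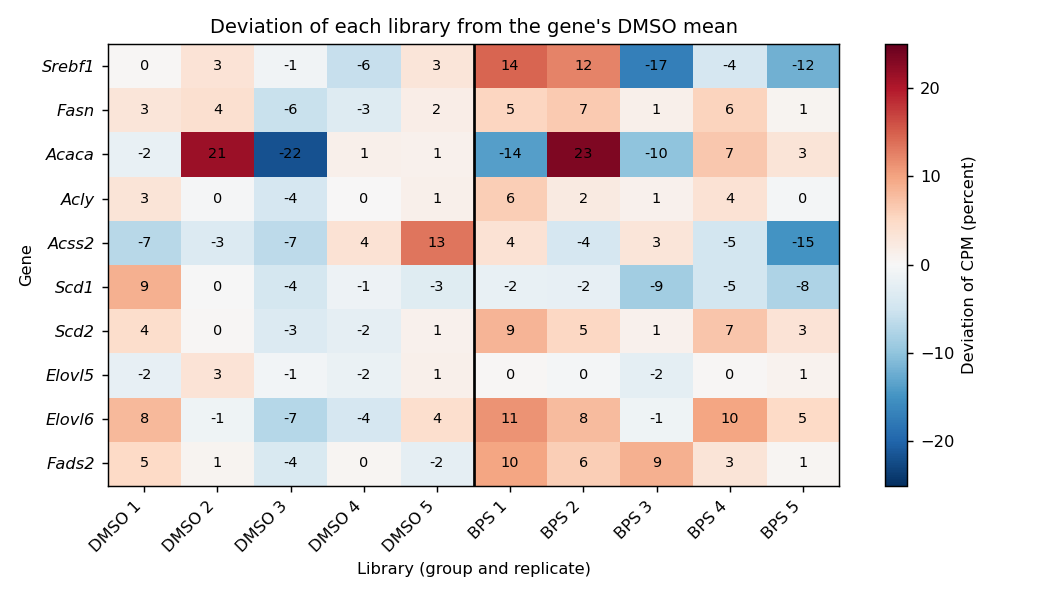
Deviation of each library (x axis) from the DMSO mean of each gene (y axis), in percent of that mean, blue for lower and red for higher; the line divides DMSO from BPS libraries. DMSO replicate 3 is below the mean in all 10 genes, and Acaca ranges from -21.8% to 23.3%.

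Of the desaturase genes Scd1 and Scd2 neither passed the test, and their log2 values lay on opposite sides of 0. Both enzymes place the double bond that turns stearate into oleate. Scd1 stood at 406.8, 373.4, 357.5, 369.1 and 362.3 CPM in DMSO and at 366.6, 366.2, 341.7, 356.4 and 345 CPM in BPS. DMSO replicate 1 was the highest, and BPS replicates 3, 4 and 5 lay below every DMSO library. The log2 fold change was -0.07 (SE 0.034, edgeR adjusted p 0.273), with a 95% interval from -9.78% to 0.0788%.

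Scd2 stood at 1056, 1015, 976.7, 989.1 and 1024 CPM in DMSO and at 1099, 1065, 1023, 1083 and 1047 CPM in BPS. BPS replicates 1, 2 and 4 lay above every DMSO library, and BPS replicates 3 and 5 within the DMSO range. Its edgeR estimate, as log2 fold change, was 0.07 (SE 0.024) with a 95% interval from 1.28% to 9.02%, an unadjusted p of 0.0126 and an adjusted p of 0.126 by edgeR, the lowest of the 10 genes.

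The ratio of Scd1 to Scd2 counts within a library does not depend on library scaling. This ratio and 3 others below were chosen after the values had been seen, so they are given as descriptions and no test result is reported. Scd1 to Scd2 was 0.385, 0.368, 0.366, 0.373 and 0.354 in DMSO replicates 1 to 5 and 0.334, 0.344, 0.334, 0.329 and 0.329 in BPS replicates 1 to 5. All 5 BPS libraries lay below all 5 DMSO libraries. The mean was 0.369 ± 0.0114 in DMSO and 0.334 ± 0.00592 in BPS (SD, n = 5 each), a log2 difference of -0.144, and -0.16 to -0.129 with any single library left out.

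The division of reads between these paralogues bears on that ratio. Of the 31-base words of the Scd1 transcript 8.3% occur in transcripts of other genes, mostly Scd3, Scd2 and Scd4, and of the Scd2 transcript 6.86%. The longest identical stretch of both transcripts spans 147 coding bases, positions 823 to 969 of the Scd1 transcript and 1246 to 1392 of the Scd2 transcript (GENCODE M21), and reads that lie within it cannot be assigned by sequence.
Scd1 and Scd2, shared coding stretch: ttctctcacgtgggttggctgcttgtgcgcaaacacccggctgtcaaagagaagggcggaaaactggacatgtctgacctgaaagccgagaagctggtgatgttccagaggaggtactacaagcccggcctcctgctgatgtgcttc
Scd3 had 6 to 13 counts and Scd4 had 9 to 26 counts per library. Whether read division contributed to the ratio was not tested.

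The remaining desaturase, Fads2, starts the conversion of the essential fatty acids into longer polyunsaturated ones. It stood at 70.43, 67.58, 64.62, 67.44 and 65.63 CPM in DMSO and at 73.83, 71.23, 73.1, 69.34 and 67.5 CPM in BPS. BPS replicates 1, 2 and 3 exceeded every DMSO library. The log2 fold change was 0.08 (SE 0.03) with a 95% interval from 1.01% to 10.8%, an unadjusted p of 0.0211 and an adjusted p of 0.166 by edgeR. Fads1, the partner desaturase of the same route, did pass the test but lost its call in 11 of 19 alternatives, at 271.7, 271, 268.7, 266.7 and 269.4 CPM in DMSO against 294.2, 284.4, 277.5, 283.8 and 276.3 CPM in BPS. Its log2 fold change of 0.07 (SE 0.018, edgeR adjusted p 0.0431) was no larger than that of Fads2, whose libraries spread more. The Fads2 to Fads1 ratio was 0.249 ± 0.00746 in DMSO and 0.251 ± 0.00782 in BPS (SD, n = 5 each).

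Of the elongases, Elovl6 lengthens palmitate to stearate and Elovl5 lengthens polyunsaturated chains. Elovl6 stood at 38.5, 35.22, 33.08, 34.11 and 37.11 CPM in DMSO and at 39.62, 38.4, 35.24, 39.12 and 37.39 CPM in BPS. BPS replicates 1 and 4 lay above every DMSO library. Its log2 fold change was the largest of the 10 in size, 0.09 (SE 0.045, edgeR adjusted p 0.296), with a 95% interval from -0.38% to 14.2%. Elovl5 stood at 92.17, 97.25, 93.37, 92.45 and 95.2 CPM in DMSO and at 94.37, 93.67, 91.74, 94.34 and 94.9 CPM in BPS, all BPS libraries but replicate 3 within the DMSO range. Its 95% interval, from -3.23% to 2.71%, was the narrowest of the 10 (log2 fold change -0.0044, SE 0.02, edgeR adjusted p 0.936). The sign of the Elovl5 value changed with upper-quartile scaling (0.000214), without DMSO replicate 2 (0.0079) and without BPS replicate 3 (0.00349). The Elovl5 to Elovl6 ratio was 2.65 ± 0.172 in DMSO and 2.47 ± 0.0929 in BPS (SD, n = 5 each).

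The division of Elovl5 counts among its 3 transcripts varied more between libraries than their sum. These counts are estimates, and how far reads can be told apart between the 3 transcripts was not tested. The curated transcript NM_134255.3 took 44.8%, 65.8%, 57.9%, 55.7% and 67.3% of the Elovl5 counts in DMSO replicates 1 to 5 and 62.1%, 83.2%, 75%, 77.2% and 75.3% in BPS replicates 1 to 5. All BPS libraries but replicate 1 were above every DMSO library. The mean share was 58.3 ± 9.05% in DMSO and 74.6 ± 7.72% in BPS (SD, n = 5 each), with p = 0.0238 by the exact two-sided permutation test and 0.0952 after adjustment over 4 genes, which does not pass. The predicted transcript XM_006511400.1 took most of the rest, 40.9 ± 8.69% in DMSO and 24.5 ± 8.33% in BPS. Tested as transcripts, the curated one gave a log2 value of 0.35 (SE 0.12, edgeR adjusted p 0.555) and the predicted one of -0.73 (SE 0.23, edgeR adjusted p 0.441), both by edgeR. Over all members 22 transcripts were listed and 20 tested. Of these, 0 were called by edgeR, against 0.335% of all 37588 transcripts tested. An unadjusted p under 0.05 was found in 4, for which the share over all transcripts was not computed. They were the curated and the predicted Elovl5 transcript above and the only transcripts of Scd2 and Fads2, already counted as genes.

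**Figure D3:**
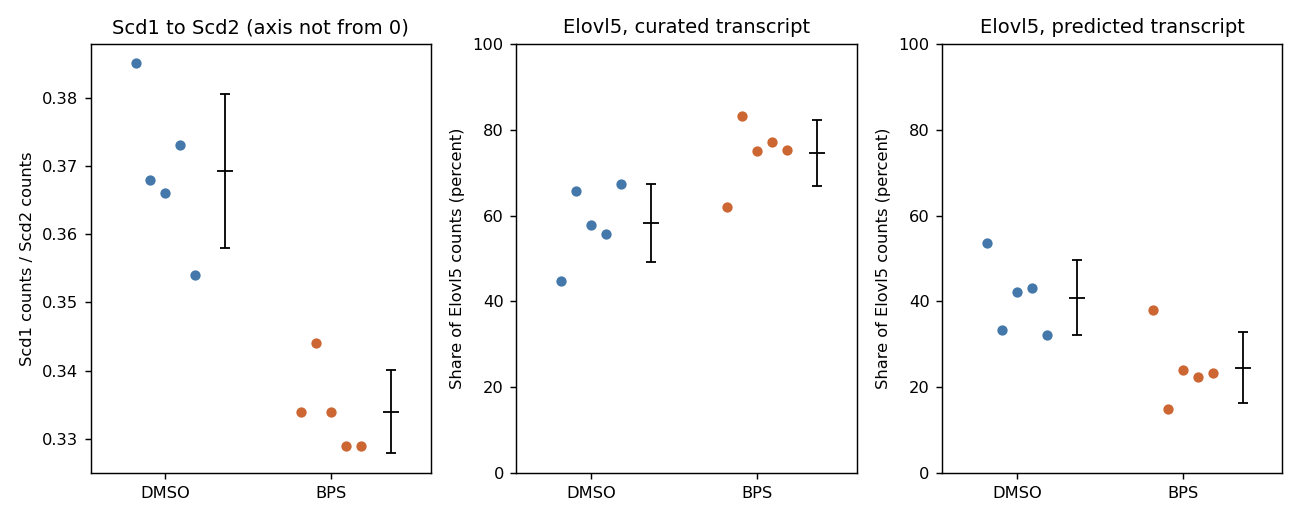
Left, counts of Scd1 over counts of Scd2 in each DMSO (blue) and BPS (orange) library (axis not from 0); centre and right, share of Elovl5 counts (percent) held by its curated and its predicted transcript; black marks give the mean and SD. The 5 BPS ratios, 0.329 to 0.344, lie below the 5 DMSO ratios, 0.354 to 0.385, while the shares overlap.

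Related gene lists come next. They too were drawn up with earlier results known, so their counts are descriptions. Over all genes 3.06% were called higher and 1.82% lower, and 18.8% had an unadjusted p under 0.05 (edgeR). SREBP precursors are held in the endoplasmic reticulum by INSIG proteins, carried to the Golgi by SCAP and cut there by site proteases. Of 14 listed genes 12 were tested, and 3 rose and 0 fell at an adjusted p under 0.05 (edgeR), with a median log2 fold change of 0.001. Mid1ip1, whose product promotes the polymerisation of acetyl-CoA carboxylase, ran from 34.9 to 37.69 CPM in DMSO and from 40.93 to 43.27 CPM in BPS. The groups did not overlap, and its log2 fold change was 0.23 (SE 0.027, edgeR adjusted p 0.000605). Insig1, a retention factor and itself an SREBP target, rose from 63.24 ± 2.44 to 71.53 ± 3.69 CPM (log2 fold change 0.18, SE 0.038, adjusted p = 0.0207). That call was lost without BPS replicate 2 (adjusted p = 0.0515).

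Srebf2, which encodes the sterol-regulated SREBP-2, rose from 206.7 ± 1.59 to 216.7 ± 2.43 CPM (SD, n = 5 each; log2 fold change 0.07, SE 0.014, edgeR adjusted p 0.0169). It lost its call with library size alone (0.0543), with the replicate block (0.0686) and with exact version matching (0.274). The ratio of Srebf1 to Srebf2 was 0.2 ± 0.00742 in DMSO and 0.188 ± 0.0269 in BPS. No conclusion is drawn on whether the SREBP genes differed in response. Scap stood at 194.2 ± 4 and 197.3 ± 6.56 CPM (adjusted p = 0.684 by edgeR). Mlxipl, which encodes the glucose-responsive activator ChREBP, had 0 to 5 counts per library and Thrsp 0 to 3, and neither was tested.

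Among the other elongation and desaturation genes 3 of 14 tested rose and 0 fell, with a median log2 fold change of 0.049. Hacd1, a dehydratase of the elongation cycle, rose from 20.34 ± 0.334 to 23.06 ± 0.992 CPM (SD, n = 5 each; log2 fold change 0.18, SE 0.034, edgeR adjusted p 0.011). Cyb5r3, whose product passes electrons to the desaturases through cytochrome b5, went from 292.1 ± 3.64 to 306 ± 5.76 CPM (log2 fold change 0.07, SE 0.016, adjusted p = 0.0404). Hacd1 and Mid1ip1 kept their calls under all 19 alternatives, while Cyb5r3 lost its call in 12 of them. The removal of DMSO replicate 1, 2, 4 or 5, or of BPS replicate 2 or 4, each ended the calls of both Cyb5r3 and Fads1. Without DMSO replicate 3 the call of Fads1 was lost, and without BPS replicate 1 or 3 that of Cyb5r3.

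In cholesterol synthesis and uptake, the route that SREBP-2 controls, 7 of 20 genes rose and 0 fell, with a median log2 fold change of 0.09. Sc5d, a sterol desaturase gene, had a log2 fold change of 0.145 (SE 0.024, edgeR adjusted p 0.00524), Sqle, which encodes squalene epoxidase, one of 0.11 and Cyp51, which encodes a sterol demethylase, one of 0.10. The count was 4 with library size alone or the replicate block, and 4 without DMSO replicate 2, DMSO replicate 3 or BPS replicate 4. Cyp51 lost its call with library size alone (adjusted p 0.0651) and without DMSO replicate 2, 3 or 5 or BPS replicate 3 or 4, and Sqle with the replicate block (0.0526). Whether this list differed from the fatty acid genes was not tested. The 95% intervals of Srebf1, Fasn, Acaca, Acss2, Scd2, Elovl6 and Fads2 include a rise of the size seen in Cyp51 (7.21%).

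**Figure D4:**
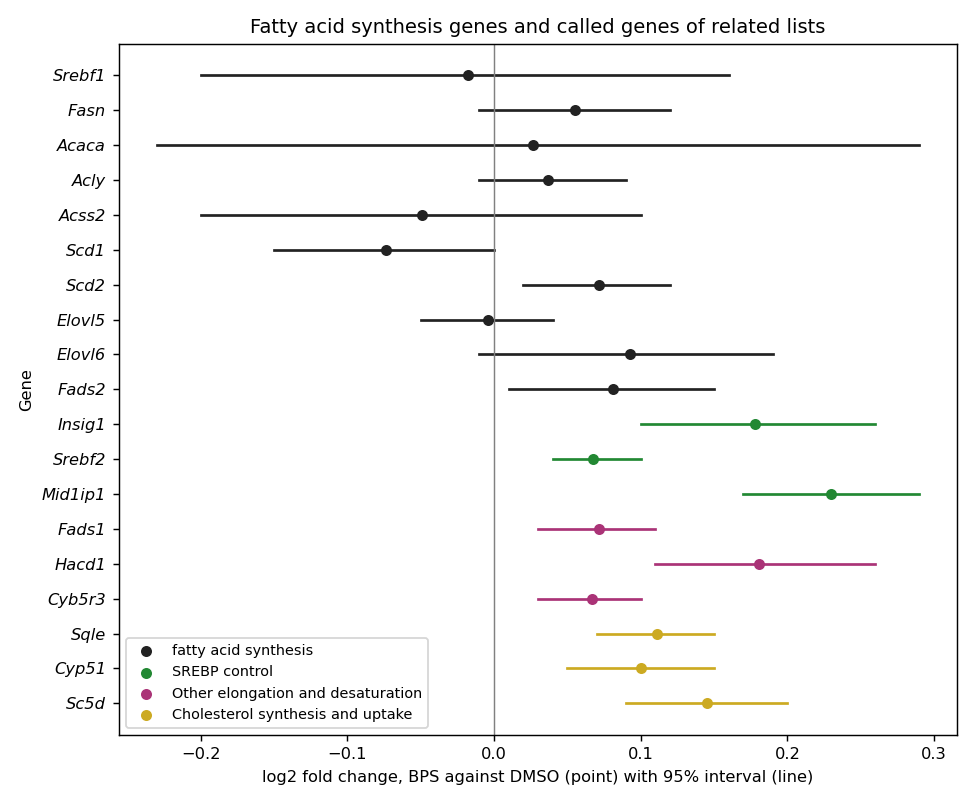
Log2 fold change of BPS against DMSO (points) with its 95% interval (lines) for the 10 fatty acid synthesis genes (black) and for the called genes named in the text from 3 related lists (colours). The intervals of Scd2 and Fads2 lie above 0 before adjustment, and those of Acaca and Srebf1 are the widest.

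The 5 remaining lists gave no calls. Of 9 genes listed for acetyl-CoA carboxylase control, a list that leaves out Mid1ip1 (called above, under SREBP control), 0 were called (median log2 fold change 0.016). Of the 9, 4 had an unadjusted p under 0.05, all of them subunit genes of AMP-activated kinase. Prkaa2, Prkab2 and Prkag2 among them had log2 fold changes of 0.38, 0.08 and 0.09 (edgeR unadjusted p 0.0334, 0.00816 and 0.00752). Their edgeR adjusted p were 0.217, 0.098 and 0.0933, and they too are named after their values were seen. Prkab1, a subunit gene of AMP-activated kinase named here after its value was seen, had means of 32.42 ± 1.43 (DMSO) and 29.78 ± 0.828 CPM (BPS; log2 fold change -0.12, edgeR adjusted p 0.0663) and was called lower with library size alone (adjusted p 0.0454), with the DESeq2 Wald test (0.0499) and without DMSO replicate 4 (0.0278 by edgeR). Stk11, the kinase upstream of it, stood at 94.21 ± 2.04 and 93.37 ± 2.37 CPM, and the catalytic subunit Prkaa1 at 64.4 ± 2.63 and 62.3 ± 3.31 CPM in DMSO and BPS (SD, n = 5 each). Of 11 tested genes for carbon and NADPH supply 0 were called by edgeR and 0 had an unadjusted p under 0.05. Citrate synthase (Cs) stood at 241.9 ± 2.92 and 244.4 ± 1.81 CPM, and Idh1, a source of NADPH, at 109.6 ± 2.78 and 109.6 ± 3.82 CPM.

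In mitochondrial fatty acid synthesis 0 of 7 genes were called and 0 had an unadjusted p under 0.05 (edgeR). Mcat, its malonyl transferase, had means of 18.26 ± 0.586 (DMSO) and 18.16 ± 0.829 CPM (BPS), and the reductase gene Mecr means of 15.47 ± 0.532 and 15.93 ± 0.819 CPM (SD, n = 5 each). Of 18 genes of acyl-CoA and glycerolipid synthesis 0 were called and 1 had an unadjusted p under 0.05. The acyltransferase gene Gpat4 stood at 128.1 ± 1.04 and 129.9 ± 4.04 CPM, and the acyl-CoA synthetase gene Acsl4 at 84.29 ± 2.06 and 84.31 ± 3.11 CPM. Of 17 fatty acid oxidation genes 0 were called and 1 had an unadjusted p under 0.05 (edgeR), against 18.8% of all genes. Their log2 fold changes were below 0 in 13 of 17, with a median of -0.023 beside 0.000393 over all genes. This direction was not tested. Hadha, of the trifunctional protein, stood at 135.8 ± 2.12 and 135.3 ± 2.21 CPM, and the dehydrogenase gene Acadl at 93.74 ± 0.608 and 91.95 ± 2.28 CPM.

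**Figure D5:**
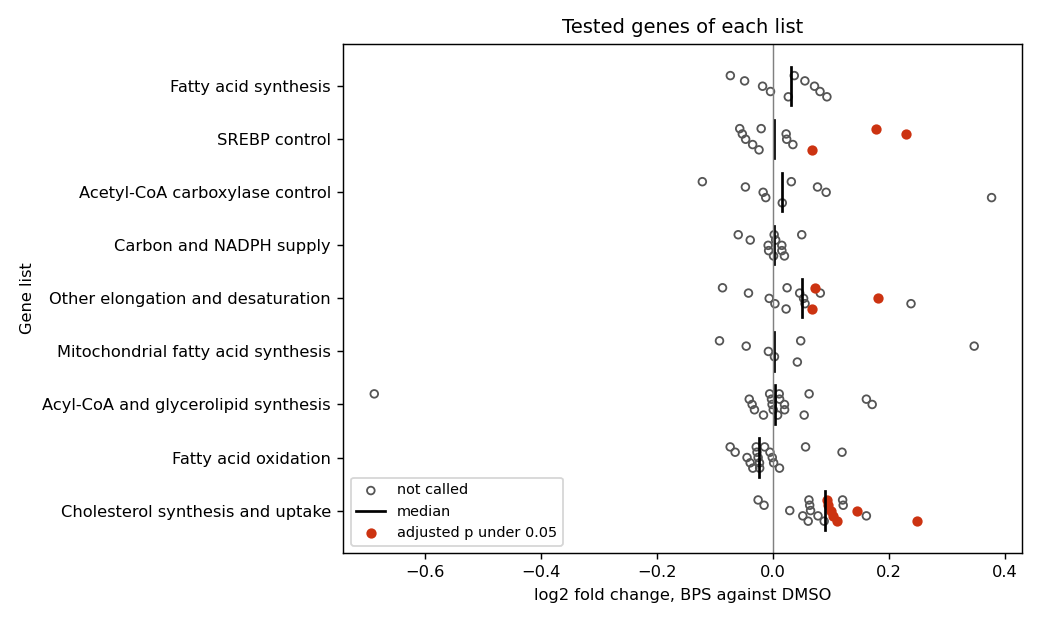
Log2 fold change of BPS against DMSO (x axis) for each tested gene of the fatty acid synthesis set and of 8 related lists (y axis); filled red points have an adjusted p under 0.05, open points do not, and black bars are medians. The called genes are 3, 3 and 7 in 3 lists and 0 of 10 in fatty acid synthesis.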

How the data were processed

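RNA of 10 libraries was sequenced by the submitters. The deposited table gives estimated counts per RefSeq transcript; they were made with kallisto 0.42.4, per the submitters' processing notes, and were not scaled. Index, genome build and strand setting are not given in the sources used here. Accessions were matched without their version to a RefSeq table (GRCm38.p6), which covered 93.1% of counts; transcripts without a gene (6.9%) were left out. Counts were summed per gene and rounded. Genes passing filterByExpr were TMM-scaled (factors 0.9854 to 1.008) and tested with edgeR 4.0.16 (quasi-likelihood, no covariates), adjusted over all genes by the Benjamini-Hochberg method; intervals use the unshrunken fold change and its SE. CPM are counts over the scaled library size. Transcript shares used exact permutation tests over libraries (252 regroupings). The same test was run on the within-library ratios, but its results are not reported because the ratios were chosen after the values had been seen. DESeq2 1.42.0, limma 3.58.1, R 4.3.3, Python 3.11.15 and scipy 1.17.1 were used; the code was tested on simulated data. Alternatives were 3 scalings, 2 filters, DESeq2, limma-voom, a replicate block, exact version matching and leaving out each library. The members and lists were chosen with earlier results of these data known. Named list genes were called genes (at most 5 a list, by p) or, with fewer than 2 calls, the 2 most abundant; some genes chosen by this rule are not reported here. Hsd17b8 was found under its synonym H2-Ke6.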

Additional observations from a re-analysis of the deposited data

Results flagged for a closer look

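Among 78 groups of 5 values (members, named genes, shares and ratios), 6 had a library apart from the rest by Dixon's criterion at the 95% level, where chance gives about 1 in 20, or 3.9. None of the 6 was a fatty acid synthesis gene, a share or a ratio. Srebf2 was low in DMSO replicate 3, at 204 CPM against 207 to 207.8 CPM. Sc5d was high in DMSO replicate 1, at 78.24 CPM against 74.76 to 75.74 CPM. Hacd1 was high in BPS replicate 3 (24.78 CPM against 22.27 to 22.87 CPM), and Acsl4 was low there (78.79 against 85.21 to 86.16 CPM). Gpat4 was high in BPS replicate 2 (137 against 126.7 to 128.8 CPM) and Sqle in BPS replicate 1 (111.8 against 105.2 to 106.9 CPM).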

How the results depend on the processing

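Over 189 values of the 10 genes under the alternatives, 0 were called, with a lowest adjusted p of 0.0702 (Scd2 without DMSO replicate 1), and 7 changed sign, all of Srebf1, Acaca and Elovl5. The counts of members called and of members without overlap were 0 throughout. With 1 library left out, log2 fold changes ran from -0.0785 to 0.0385 for Srebf1, -0.0511 to 0.106 for Acaca and -0.0122 to 0.0079 for Elovl5; with upper-quartile scaling Elovl5 was at 0.000214. Fads2 could not be tested with exact version matching. The leading share of Srebf1 ran from -2.48 to 5.79 points, the Fads2 to Fads1 log2 ratio from -0.00883 to 0.0237 and the Scd1 to Scd2 log2 ratio from -0.16 to -0.129. Calls in other elongation and desaturation were 1 (of 3) with library size alone, no filter, the replicate block and exact version matching, and 1 to 3 with 1 library left out. Those in cholesterol synthesis and uptake were 4 (of 7) with library size alone and the block, and 4 to 6 with 1 library left out (4 without DMSO replicate 2, DMSO replicate 3 or BPS replicate 4). Acetyl-CoA carboxylase control gave 1 with library size alone and the DESeq2 Wald test and 0 to 1 with 1 library left out; glycerolipid synthesis gave 0 to 1 (1 without BPS replicate 5). Whether the replicate number pairs the libraries could not be decided from these values. Over all genes same-numbered deviations correlated at 0.1, 0.00384, -0.067, 0.072 and -0.078, and 4 of 10 libraries correlated best with their own number. Summed over the 10 fatty acid synthesis genes, replicate 1 was the highest and replicate 3 the lowest library in both groups. With the replicate block the edgeR adjusted p was 0.116 for Scd1 and 0.076 for Scd2, against 0.273 and 0.126 without it. Over all genes the block gave 374 calls in place of 712. The causes were not tested, beyond the fewer transcripts of exact matching (328 calls). Over all genes, leaving out 1 library gave 449 to 774 calls. Depth limits Acss2 most, at 327 to 440 counts.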
